A study of Mus musculus with 3 samples.

Results

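The genes described here encode the protein parts of the cytosolic ribosome, the machine that translates messenger RNA. They were chosen by name: a mouse symbol of the Rpl or Rps series, including Rpsa and the stalk genes Rplp0, Rplp1 and Rplp2, together with at least 1 transcript annotated as protein-coding. The naming rule itself uses no measured value, but the gene family was picked with earlier results of these data known. The rule found 83 genes among 55536 annotated genes, of which 22028 are protein-coding. There were 76 canonical genes, 46 of the large and 30 of the small subunit, and 7 paralogs (Rpl3l, Rpl7l1, Rpl10l, Rpl22l1, Rpl36al, Rpl39l and Rps27l). Rps4l, Rps12l1, Rpl6l and Rpl32l match by name but have no protein-coding transcript, and were left out.

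Ribosomal proteins join ribosomal RNA in the nucleolus, and nearly all of them occur once in each ribosome, so their synthesis has to be balanced. Their genes are compact and strongly transcribed, and the spliced mRNAs are short, stable and among the most abundant of the cytoplasm. These mRNAs typically begin with a run of pyrimidines, the terminal oligopyrimidine tract, through which the kinase mTOR and the protein LARP1 set how strongly they are translated. Several of the genes also carry small nucleolar RNAs (snoRNAs) in their introns.

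The RNA came from the chromatin fraction of bone marrow-derived macrophages of the mouse strain C57BL/6J, primary phagocytes grown from marrow. The cells had been treated for 120 min with lipid A at 100 ng/ml, the part of bacterial lipopolysaccharide that the receptor TLR4 senses. Ribosomal RNA was depleted and the rest sequenced as total RNA, in 1 group of 3 libraries made from 1 µg (replicate 1), 250 ng (replicate 2) and 500 ng (replicate 3) of RNA. The labels call them biological replicates with 1 donor label, give sex and age as not collected, and do not say whether the cultures or animals were separate. Each p below therefore rests on these 3 libraries only. It sets their differences against counting error, or a mean over them against their spread, which may be technical. Untreated cells were not analysed here, so no value speaks to the response to lipid A.

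Annotated genes held 19751051, 20372850 and 21984526 expected counts in replicates 1, 2 and 3. All 10 macrophage markers had a mean of at least 1 TPM, a transcript level divided by length and scaled to the same total in every library. The markers of T cells, B cells, neutrophils, erythroid and stromal cells summed to between 0.02 and 5.31 TPM in any library, and Cd3e, Cd3g, Trbc2, Ly6g and Elane were listed at 0 in all 3. Replicate 2 stood apart in the results below, which are therefore also given without it. Its macrophage markers summed to 1723 TPM, against 583 and 516 in replicates 1 and 3, and its 13 mitochondrially encoded genes had a median of 246 TPM, against 32.2 and 23.0.

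The DNA around the annotated starts is described first. No link between its letters and the differences between libraries was tested. In the RefSeq table of GRCm38.p6, 63 of the 83 genes matched, with 75 start sites. The letters CTTT, on the transcribed strand and beginning within 5 bases of the start, marked the pyrimidine tract here. They stood at 14 of the 75 starts (18.7%), against 4.81% of the 32851 starts of all genes. The run of C and T around them was 7 to 21 bases long, with a median of 10.5. Windows from 20 bases before to 10 after the start are shown for 8 genes with the letters and for Rplp0 and Rpl5 without them, since these 10 include 2 stalk genes, Rps6 and the genes with the highest level and the smallest departure described below. Capitals mark the unbroken pyrimidine run around CTTT within 5 bases of the start. The Rpl5 window also holds CTTT, but more than 5 bases before the annotated start, so it is not marked or counted.
Rps9, chr7:3704021-3704050, plus strand: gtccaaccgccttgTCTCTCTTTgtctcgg
Rps6, chr4:86857358-86857387, minus strand: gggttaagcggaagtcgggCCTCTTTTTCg
Rplp2, chr7:141447631-141447660, plus strand: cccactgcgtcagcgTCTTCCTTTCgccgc
Rpl7a, chr2:26910787-26910816, plus strand: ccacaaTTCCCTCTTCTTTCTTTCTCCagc
Rpl35, chr2:39005122-39005151, minus strand: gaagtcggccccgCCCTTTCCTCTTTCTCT
Rpl15, chr14:18270977-18271006, minus strand: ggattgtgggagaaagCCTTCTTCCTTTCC
Rps10, chr17:27635235-27635264, minus strand: acgctgcgccgcgcacgCCCCTTCCTTTCC
Rpl38, chr11:114668560-114668589, plus strand: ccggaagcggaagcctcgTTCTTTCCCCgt
Rplp0, chr5:115559447-115559476, plus strand: acgtcgtcttcgggtttcgaggaccgcctg
Rpl5, chr5:107900508-107900537, plus strand: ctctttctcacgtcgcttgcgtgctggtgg
Within 250 bases before to 50 after the start, CCGGAA, the core that ETS-family factors recognise, stood at 35 of the 75 starts (46.7%, against 14.9% of all) on either strand. ATGGCG, the core recognised by YY1, stood at 24 of them (32%, against 8.93%) on either strand. ATGGCG can also hold a start codon, and matches of different motifs may overlap at their ends. These are matches of letters, and a window without a match says nothing about a factor. The 14 genes with CTTT had a median level of 26.9 TPM and the 46 matched and measured genes without it 25.97 TPM.

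All 76 canonical genes were detected in every library, at moderate levels. Their median of the mean TPM was 26.5, and with the paralogs it was 25.6, where the median of all protein-coding genes was 0.277. Many of those had no counts, and over the 11022 protein-coding genes with a mean of at least 10 counts the median was 5.25. Among the 22028 protein-coding genes the canonical members ranked between percentiles 81.9 and 97.7, with a median of 91.7. Their share of all protein-coding counts was nonetheless small. It was 0.154% in replicate 1 (95% Clopper-Pearson interval 0.151% to 0.156%), 0.363% in replicate 2 (0.360% to 0.366%) and 0.147% in replicate 3 (0.145% to 0.149%), intervals that cover counting error only. Per library the canonical medians were 13.6, 50.1 and 14.2 TPM. In bulk RNA, fewer cells with a transcript and less of it per cell cannot be told apart.

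The highest mean belonged to Rps9, a small subunit protein near the entry of the mRNA channel (ENSMUSG00000006333.14, mm10 chromosome 7, 3703993 to 3706897, plus strand). It had 68.2, 123 and 57.1 TPM in replicates 1, 2 and 3, a mean of 82.7 ± 35.1 (SD, n = 3). Rpl10, which completes the large subunit near its active centre (chromosome X, 74270812 to 74273135), followed with 42.3, 121 and 55.8 TPM. Rpl41, the shortest ribosomal protein, had 22.1, 116 and 26.9 TPM. These levels were highest in replicate 2, and replicates 1 and 3 lay close together. Rps24 had 27.5, 81.1 and 47.9 TPM, and Rps12 had 23.3, 102 and 30.3 TPM. Rps27, a zinc-binding protein of the small subunit, had 23.9, 113 and 18.3 TPM. The other 2 of the 8 highest, Rplp1 and Rps29, owed their place to replicate 2 and are described below.

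At the lower end stood Rpl36a (chromosome X, 134585654 to 134588062), with 3.92, 19.0 and 5.91 TPM, a mean of 9.60 ± 8.18 (SD, n = 3). Rps26, at the exit of the mRNA channel, had 3.88, 24.0 and 6.16 TPM. Rpl35 had 7.92, 21.3 and 5.12 TPM and Rpl14 had 5.51, 21.2 and 7.88 TPM. The spread between libraries was wider than the gaps between neighbouring genes. The remaining 4 of the 8 lowest were Rps3 (12.98 TPM), Rps16 (13.2), Rpl39 (13.4) and Rpl37 (15.1), by mean. All 75 neighbouring pairs in the order of canonical levels differed by less than the smaller SD of the pair, so the order fixes no neighbour. Within a library the highest canonical gene exceeded the lowest 17.6, 8.11 and 18.7 times, and the gene at the 90th percentile exceeded that at the 10th 3.57, 3.29 and 4.80 times.

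**Figure D1:**
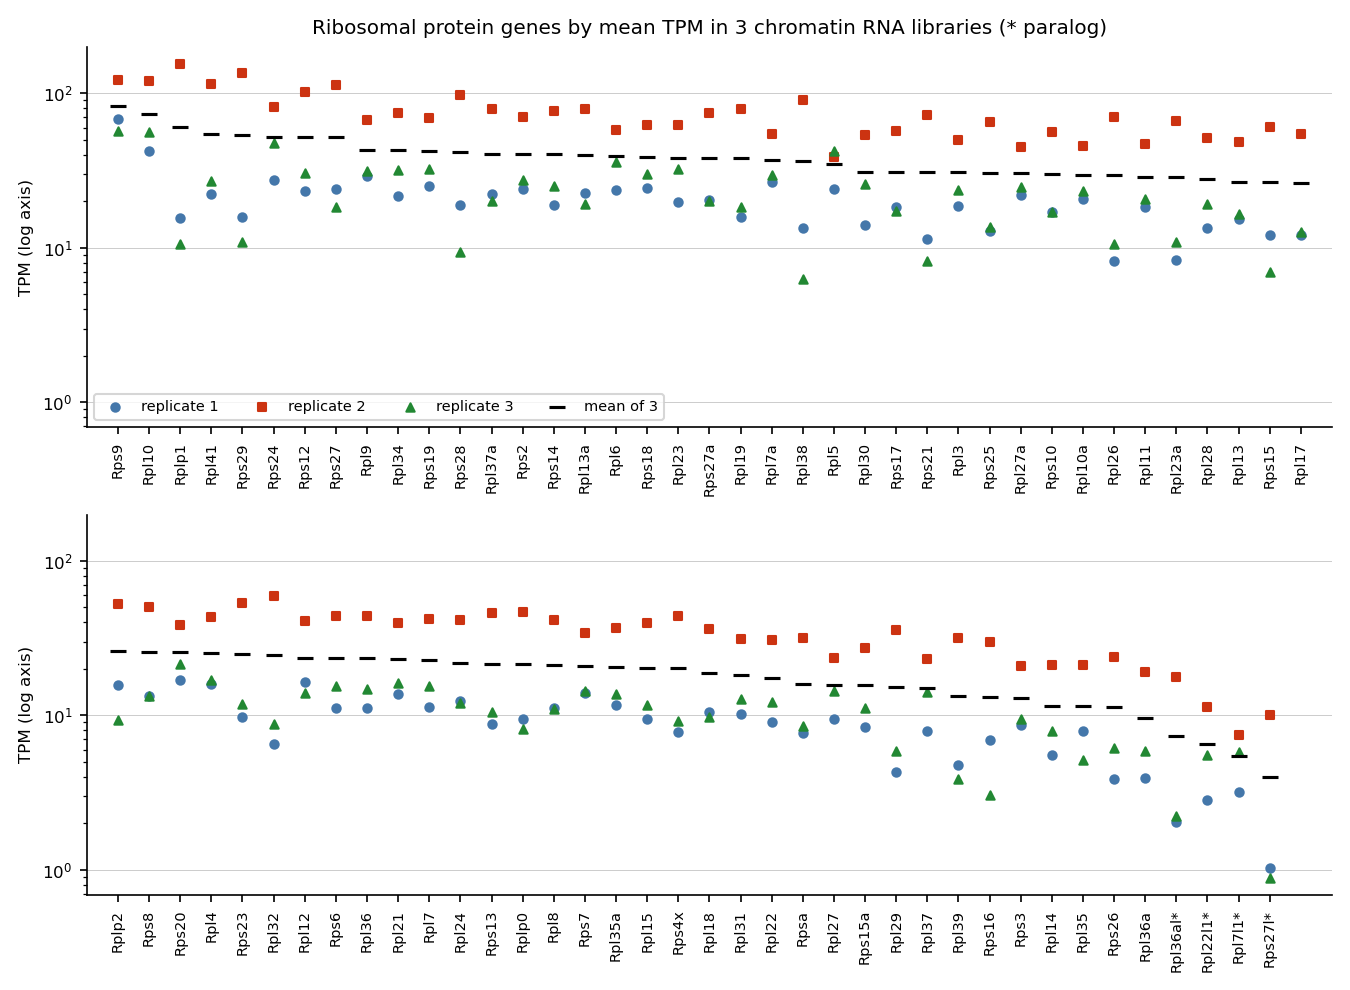
TPM of 77 measured ribosomal protein genes (log axis), ordered by mean, with 1 symbol per library and a bar at the mean of the 3 libraries. Replicate 2 is the highest point for 76 of the 77 genes, and Rpl5 is the exception, highest in replicate 3.

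Large and small subunit genes were at like levels. Large subunit genes had medians of 13.4, 46.7 and 14.2 TPM and small subunit genes 14.7, 56.7 and 13.9 TPM. The large minus small difference of median log2(TPM + 0.1) was -0.13, -0.28 and 0.03 in replicates 1, 2 and 3, a mean of -0.13 ± 0.15 (SD, n = 3). This difference was smaller than its spread between libraries, and it was 0.04 when counts were not divided by length.

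The stalk is the flexible arm of the large subunit that recruits translation factors. Rplp0, its base (chromosome 5, 115559467 to 115563727), had 9.51, 46.5 and 8.12 TPM. Rplp1 (chromosome 9, 61913284 to 61914542), an acidic partner bound to Rplp0, had 15.6, 154 and 10.6 TPM, and Rplp2, the other, had 15.7, 52.9 and 9.30 TPM. In replicates 1 and 3 the 3 stalk genes were of similar level, and in replicate 2 Rplp1 led all canonical genes, after rank 33 in replicate 1 and 55 in replicate 3.

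Rpl5 and Rpl11 carry the 5S RNA into the large subunit and, when unassembled, bind the p53 regulator Mdm2. Rpl5 (chromosome 5, 107900502 to 107909005) had 23.9, 38.6 and 42.6 TPM, with expected counts of 376, 532 and 614. Rpl11 had 18.3, 47.0 and 20.8 TPM. Rpl5 was thus the 1 measured member whose TPM was not highest in replicate 2, and Rpl11 followed the common order.

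Around the exit tunnel, through which the nascent chain leaves, the 8 listed genes Rpl4, Rpl17, Rpl39, Rpl19, Rpl23a, Rpl26, Rpl31 and Rpl35 had medians of 9.29, 48.7 and 11.8 TPM. Rpl19 was their highest with 15.7, 79.6 and 18.4 TPM. The 18 listed genes known from Diamond-Blackfan anaemia, a red cell aplasia caused by loss of 1 copy of a ribosomal protein gene, had medians of 14.9, 43.4 and 14.0 TPM. They ran from Rps26 at the bottom to Rps29 at the top, with 15.8, 135 and 11.0 TPM. Rps27a, made as a fusion with ubiquitin, had 20.4, 74.3 and 20.2 TPM. Rps6, the small subunit protein phosphorylated downstream of mTOR, had 11.1, 43.8 and 15.4 TPM. Rpl13a, known for a role outside the ribosome in interferon-treated phagocytes, had 22.5, 78.5 and 19.1 TPM. In these genes replicate 2 was above both other libraries, which lay closer to each other.

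The paralogs were lower by mean, and 3 of 7 were silent in these counts. Rpl3l, the striated muscle paralog of Rpl3, and the testis paralogs Rpl10l and Rpl39l had 0 counts in all 3 libraries, which allows up to 0.152, 0.147 and 0.136 CPM at 3 counts per library, CPM being counts brought to 1 common library total without division by length. The other 4 were present. Rpl36al had 2.03, 17.8 and 2.23 TPM. Rpl22l1 (chromosome 3, 28805436 to 28807424) had 2.85, 11.3 and 5.57 TPM, beside its parent Rpl22 with a mean of 17.4 TPM. Rpl7l1 had 3.18, 7.41 and 5.83 TPM, and Rps27l, a p53-induced paralog of Rps27, 1.03, 10.1 and 0.890 TPM. The highest paralog mean, 7.34 TPM for Rpl36al, lay below the lowest canonical mean. Within replicate 3, however, Rpl7l1 and Rpl22l1 lay above the lowest canonical level of 3.05 TPM.

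The 3 libraries differed in these genes by more than counting error. Rounded expected counts were compared with the share each library should hold after scaling with trimmed means (TMM, edgeR), by a chi-square test for each of 14200 genes whose mean count reached 10. This test compares libraries, not conditions. All 80 measured ribosomal protein genes passed an adjusted p of 0.05 and all 80 were highest in replicate 2. Of all genes tested, 68.8% passed, and 24.3% passed while highest in replicate 2. Beyond counting error the coefficient of variation had a median of 68.3% over the members and 20.1% over all genes. Without replicate 2, 41 of 79 members passed (51.9%), against 54.7% of all genes, a share near the background.

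The size of this difference was taken as the departure of a library: its log2 value of CPM + 0.1 after TMM scaling, less the average over the remaining 2 libraries. In replicate 2 the median departure of the members was 1.56, or 2.94-fold, where that of all 14184 genes was 0.07. In replicates 1 and 3 it was -0.48 and -1.002, against -0.12 and 0.01 for all genes. Both of these are set against a mean that includes replicate 2. Directly against each other, replicate 1 exceeded replicate 3 by a median of 0.31. Of the members, 63 of 80 (78.8%) departed by more than 1 in replicate 2 and 22 (27.5%) by more than 2, against 7.36% and 1.80% of all genes. The median of 1.56 was 0.99 with the other quantifier and between 1.34 and 1.79 against either library alone. By CPM 16 of the 80 genes were higher in replicate 3 than in replicate 1, but by TPM 56 were, so the order of those 2 libraries depends on the scaling.

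**Figure D2:**
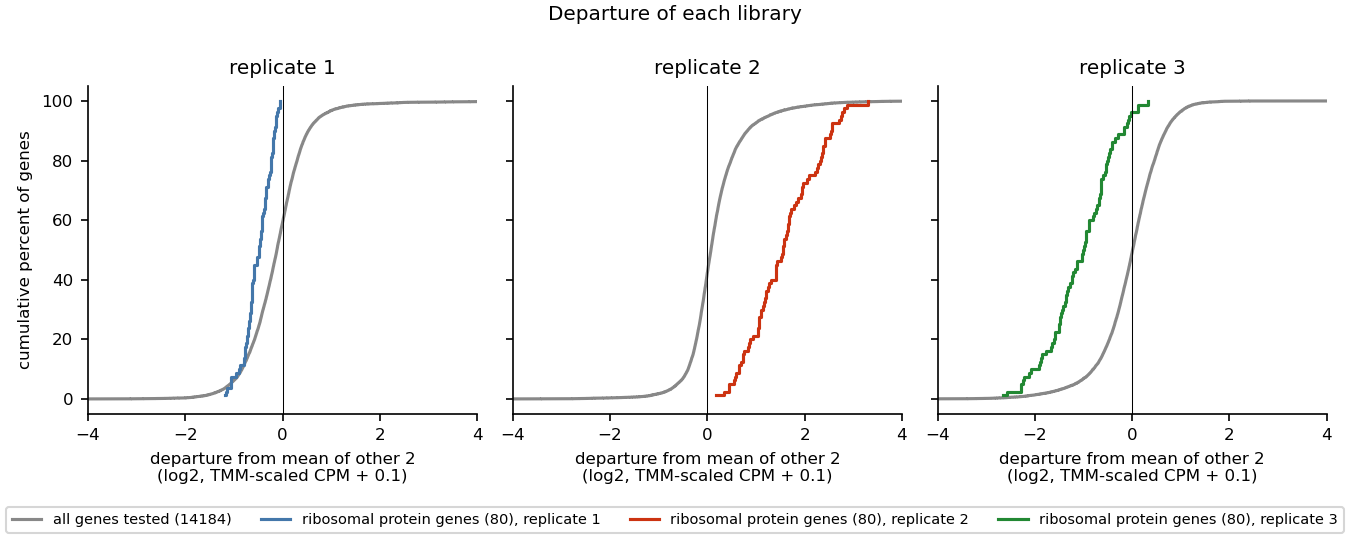
Cumulative percent of genes by departure of each library (log2, TMM-scaled CPM + 0.1, against the mean of the other 2 libraries), for the 80 measured ribosomal protein genes in colour and 14184 genes in grey. The coloured curve lies wholly to the right of 0 in replicate 2, with its middle at 1.56, while the grey curves cross 50% near 0.

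The members spanned a wide range of departures in replicate 2, from 0.17 to 3.31. Rplp1 was at the top, with 106, 788 and 59.0 expected counts and a departure of 3.31 (adjusted p = 7.17e-236, chi-square test with Benjamini-Hochberg adjustment over all genes). Rps29, a small zinc-binding protein of the small subunit, had 70.6, 406 and 42.0 counts and a departure of 2.87. Rpl38, known for tissue patterning defects when lost, had 55, 238 and 21 counts and 2.75, with the largest departure of replicate 3 as well, -2.65. Replicate 2 exceeded both other libraries severalfold in these genes. Rplp0 (2.57) and Rpl23a (2.56) were also among the 6 largest of the members with a mean of at least 100 counts. Below that mean, Rpl39 departed by 2.81 and the paralog Rps27l by 2.77. Rplp0 had 196, 1019 and 153 counts (adjusted p = 4.94e-237, same test).

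At the other end, Rpl5 had a departure of 0.17 (adjusted p = 0.0039, same test). Rpl35a had 302, 450 and 436 expected counts and a departure of 0.34 (adjusted p = 9.0e-04), and Rpl22l1 had 60.9, 122 and 137 counts and a departure of 0.44 (adjusted p = 0.0012). On scaled counts replicate 1 was lowest in these 3 genes. Replicate 3 lay near replicate 2 for Rpl5 and Rpl22l1, with departures of 0.12 and 0.33, and near replicate 1 for Rpl35a, with -0.09. Rpl30 had the largest departure of replicate 1, -1.18, with 201, 642 and 492 counts. Rps24 had the most counts of all members, 1231, 2101 and 1980, with a departure of 0.45. Its effective length, by which TPM is divided, was 1896, 1229 and 1881 nt, so its TPM set replicate 2 further apart than its counts did. Rps9, the highest by level, departed by 0.73.

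Departure did not follow mRNA length closely. The 38 canonical genes with shorter mRNAs (312 to 733 nt) had a median departure of 1.68 and the 38 with longer ones (738 to 3706 nt) 1.46. Across the 76 genes Spearman's rho of the departure was -0.18 with mRNA length and -0.38 with gene span. It was -0.49 with the share of a gene's counts on retained-intron isoforms in replicates 1 and 3, over 61 genes. These correlations describe genes within the same 3 libraries, and the last shares its counts with the departure. The 14 genes with CTTT had a median departure of 1.30 and the 46 matched and measured genes without it 1.46.

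Protein-coding isoforms differed between the libraries more than retained-intron isoforms did. The annotation divides transcripts of a gene into protein-coding ones, which are spliced, and ones with a retained intron, and 63 members with a mean of at least 50 counts have both. In replicates 1, 2 and 3 the median of their protein-coding isoforms was 6.39, 33.3 and 5.34 TPM. Their retained-intron isoforms had medians of 5.86, 9.85 and 8.71 TPM. On TMM-scaled CPM, the protein-coding isoforms of replicate 2 had a median departure of 2.40 (5.29-fold), above 0 in 63 of 63 genes and at least 1 in 57. The retained-intron isoforms had a median departure of 0.07 (1.05-fold), above 0 in 36 of 63 and within 1.5-fold of no departure in 56. In 61 of the 63 genes the protein-coding departure was the larger. Over all 5603 genes with both classes the same medians were 0.17 and -0.08. This division was looked at after the isoform ratios by library had been seen, and has no test. The sign of the small retained-intron median depends on the scaling: it was -0.01 with DESeq2 size factors.

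**Figure D3:**
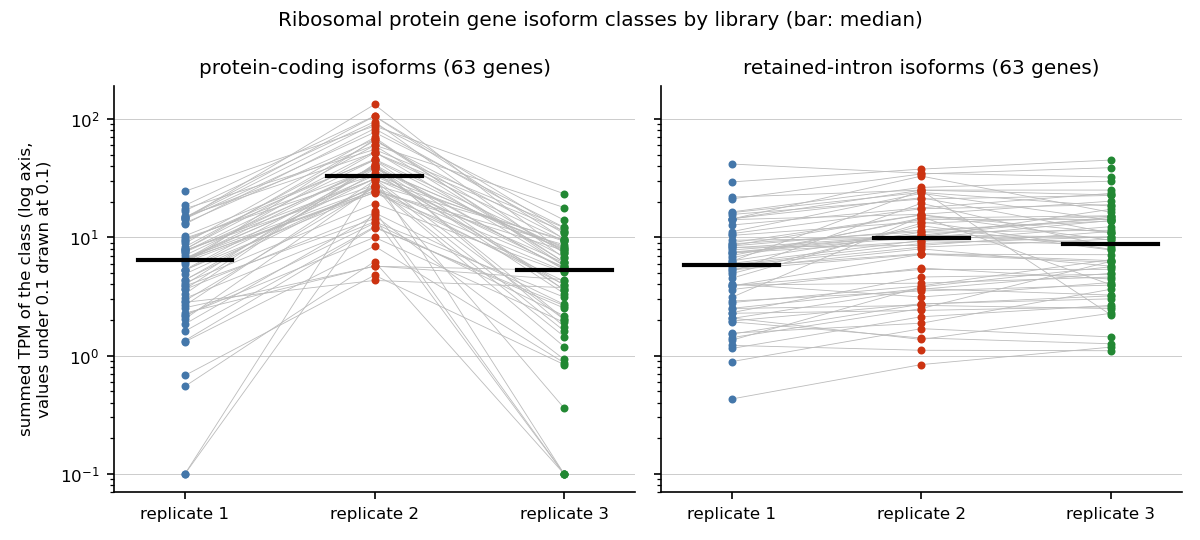
Summed TPM (log axis) of protein-coding isoforms (left) and retained-intron isoforms (right) in each library for the 63 genes with both, 1 point per gene, with grey lines joining a gene's points and a black bar at the median. The left bars stand at 6.39, 33.3 and 5.34 TPM and the right bars at 5.86, 9.85 and 8.71 TPM.

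In single genes the split was plain. Rpl10 had 12.9, 83.0 and 10.8 TPM on protein-coding isoforms and 29.4, 37.7 and 45.0 TPM on retained-intron isoforms. Rps29 had 14.3, 133 and 7.32 TPM on the former and 1.55, 1.88 and 3.64 TPM on the latter. Rps9 had 24.5, 87.2 and 23.3 TPM on the former and 41.6, 34.8 and 32.3 TPM on the latter. Replicate 2 stood apart from both other libraries on the protein-coding isoforms of these genes only. Rps24 had 6.46, 51.8 and 9.31 TPM on protein-coding isoforms and 12.7, 17.8 and 23.5 TPM on retained-intron isoforms, so that its small departure as a whole gene joined a protein-coding departure of 1.90 with a retained-intron one of -0.04. For Rpl5 both were small, at 0.50 and 0.11. The 2 exceptions were Rpl15, with 1.35 on protein-coding and 1.80 on retained-intron isoforms, and Rps20, with 0.54 and 0.96. In Rps16 both classes departed alike, by 2.38 and 2.36. For Rps18 and Rps26 the protein-coding isoforms were listed at 0 in replicates 1 and 3 and at 32.2 and 16.8 TPM in replicate 2, and those of Rpl10a and Rpl22l1 at 0 in replicate 3.

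Of all counts on the 83 genes, protein-coding isoforms held 47.0%, 72.5% and 35.7% in replicates 1, 2 and 3, and retained-intron isoforms 44.3%, 21.4% and 55.7%. Isoforms annotated for nonsense-mediated decay, a small class, held 303, 1193 and 224 expected counts (1.83%, 2.78% and 1.15%), and were thus also highest in replicate 2. Isoforms annotated as processed transcripts, the remaining class, held 1148, 1424 and 1441 (6.94%, 3.32% and 7.39%), with their lowest share in replicate 2. Protein-coding and retained-intron isoforms share exons, so how many reads each received is an estimate of the authors' quantifier. With the other quantifier the median departure of the protein-coding isoforms in replicate 2 was 1.71 and that of the retained-intron isoforms 0.02. The order of genes by level was also kept better in the retained-intron class: Spearman's rho between libraries was 0.91, 0.89 and 0.84 there and 0.83, 0.85 and 0.68 in the protein-coding class (pairs 1 and 2, 1 and 3, 2 and 3, over 63 genes), as a description.

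The ratio of both classes was tested over the libraries together, as log2 of summed retained-intron TPM + 0.1 over summed protein-coding TPM + 0.1, against 0 with limma and Benjamini-Hochberg adjustment over 5603 genes. Of the 63 members 8 were higher in retained-intron isoforms (12.7%, against 19.3% of all genes) and 14 lower (22.2%, against 29.7%). The members' median ratio was -0.31 and that of all genes -0.23. By library the members' median was 0.21, -1.77 and 1.01 and that of all genes -0.39, -0.45 and 0.17, so the mean over libraries joins unlike values. Without replicate 2 the members' median was 0.63, with 18 higher (28.6%, against 16.9% of all genes) and 12 lower (19.0%, against 22.8%). Without replicate 1 the limma counts were 3 higher and 5 lower (11.3% and 16.7% of all genes), and without replicate 3 they were 5 and 22 (14.7% and 32.4% of all genes).

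Among the members past the threshold with 1 sign in every library, Rpl5 had the largest ratio, 2.86, 2.96 and 3.33 in replicates 1, 2 and 3 (mean 3.05, SE 0.27, limma adjusted p = 0.0011). Rps16 had 3.03, 2.36 and 1.30 (mean 2.23, SE 0.39, limma adjusted p = 0.0066). Rpl12 had 2.89, 0.68 and 3.05, and Rps20 had 2.44, 2.51 and 1.61. In these 4 genes retained-intron isoforms had the higher TPM of both classes in every library. Rpl10a had 1.85, 0.79 and 7.84, a larger mean of 3.50, but did not pass (limma adjusted p = 0.071). Rpl13a (mean 1.45) and Rpl27a (mean 1.37) completed the 6 largest of those that passed, and lost their call without replicate 1 (adjusted p = 0.14 and 0.17) or replicate 3 (adjusted p = 0.079 and 0.097), as Rpl12 did without replicate 1 (adjusted p = 0.10), all by limma.

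The smallest ratio was that of Rpl23a, an exit tunnel protein that docks the signal recognition particle, with -3.91, -6.13 and -2.95 (mean -4.33, SE 0.61, limma adjusted p = 0.0034). Rps28 had -3.75, -5.41 and -1.30, Rps29 -3.12, -6.07 and -0.99 and Rplp0 -1.92, -4.90 and -2.36. Every one of these 4 was lowest in replicate 2. Rps28 (adjusted p = 0.075) and Rps29 (adjusted p = 0.10) lost their call without replicate 1 by limma, and Rps28 had a ratio of -0.37 with the other quantifier (adjusted p = 0.63) where Rps16 had 0.19 (adjusted p = 0.49). Rps18 passed with a mean of 5.13 but without 1 sign, since it had 7.78, -0.36 and 7.98.

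**Figure D4:**
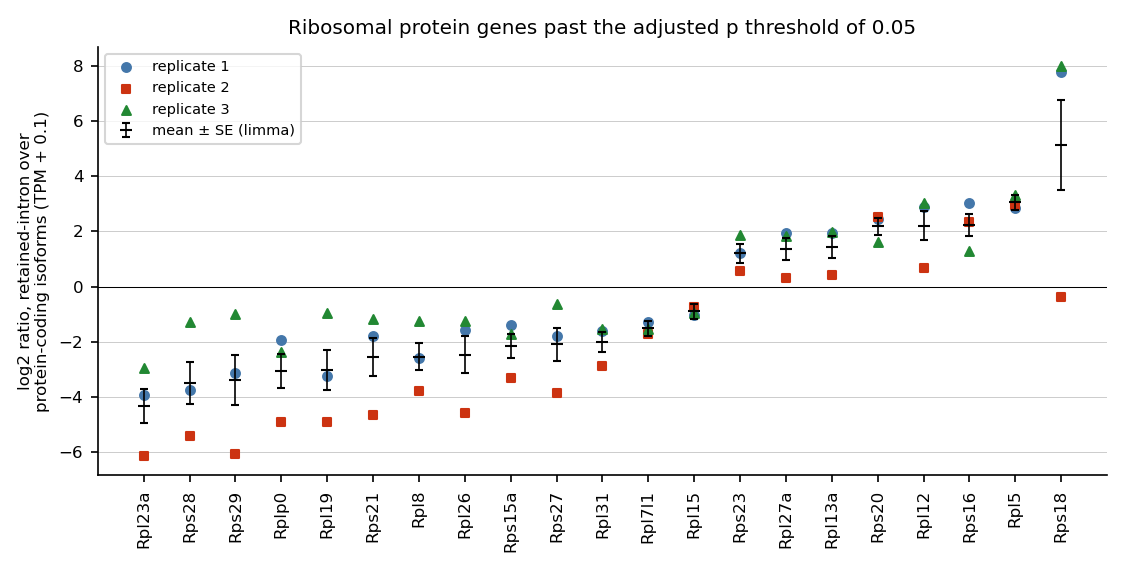
Log2 ratio of retained-intron over protein-coding isoforms (TPM + 0.1) by library for 21 members past the threshold, with the mean ± SE from limma in black. Replicate 2 is the lowest value for most genes, and Rpl5 has nearly the same ratio in all 3 libraries.

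By role, 4 of the 6 tested exit tunnel genes passed with a lower ratio and none with a higher one, and the median of their fitted ratios was -2.23. Of 34 large subunit genes 4 were higher (11.8%) and 7 lower (20.6%), and of 27 small subunit genes 4 were higher (14.8%) and 6 lower (22.2%), all under the 19.3% and 29.7% of all genes. The 25 tested snoRNA hosts had 6 higher (24%) and 2 lower (8%) with a median of 0.32. The 38 tested members without a snoRNA had 2 higher (5.26%) and 12 lower (31.6%) with a median of -0.63. These limma counts moved with the libraries: without replicate 1 the exit tunnel genes had 2 lower, the hosts 3 higher and 1 lower, and the members without a snoRNA 0 higher and 4 lower. Large subunit genes then had 1 higher and 3 lower and small subunit genes 2 and 1. Of all genes, 11.3% were then higher and 16.7% lower. Without replicate 2 the large subunit genes had 12 higher (35.3%), the small subunit genes 5 (18.5%) and the exit tunnel genes 0. The hosts then had 10 higher (40%) and the members without a snoRNA 8 (21.1%), against 16.9% of all genes. In that order 6 (17.6%), 5 (18.5%), 4 (66.7%), 2 (8%) and 10 (26.3%) were lower, against 22.8% of all genes. Without replicate 3, 7 hosts (28%), 11 large subunit (32.4%) and 10 small subunit genes (37.0%) were lower, against 32.4% of all genes. In the same order 4, 3 and 2 were higher (16%, 8.82% and 7.41%), against 14.7% of all genes. Of the members without a snoRNA 15 were then lower (39.5%) and 1 higher (2.63%), and of the exit tunnel genes 5 were lower (83.3%) and 0 higher. No difference between these groups was tested.

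Within the spans of 29 members, on the same strand, lie 56 annotated snoRNAs, which guide modification of ribosomal RNA. All 29 hosts are canonical. Their highest levels were those of Rpl10, Rps12 and Rps2 (24.2, 69.9 and 27.3 TPM), and their lowest those of Rps3, Rps16 and Rpl39. The hosts had medians of 15.3, 49.8 and 16.1 TPM and canonical genes without a snoRNA 12.9, 51.0 and 13.8 TPM. All 34 snoRNAs shorter than 120 nt had 0 counts in every library, and 9 snoRNAs of at least 131 nt had a mean of at least 10 counts. The labels give fragments of 250 to 400 nt for every library. Whether that range has a part in these 0 counts was not tested, so they do not show absence from the cells. The strongest of the 9 snoRNAs lie in Rps3, a small subunit protein that also takes part in DNA repair. Snord15b there had 4529, 1515 and 2740 counts and Snord15a 1376, 661 and 934, where Rps3 itself had 392, 786 and 496. Replicate 2 was thus lowest for both snoRNAs and highest for their host. All 9 snoRNAs with a mean of at least 10 counts departed below 0 in replicate 2, with a median of -0.80 (0.57-fold), while every host departed above 0. The smallest of these departures was -0.02. A departure below 0 did not make replicate 2 the lowest library for each of the 9 snoRNAs. Snora64 had 28.8, 5.74 and 3.84 counts and Snora21 had 32, 9 and 5, with replicate 1 highest and replicate 3 lowest.

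Many processed pseudogenes resemble these genes, so part of each level rests on how reads were shared out. Of 50 nt windows along the members' transcripts a median of 57.4% occur in another gene, and 1821 other genes share at least 1, of which 1094 are pseudogenes. The silent Rpl3l and Rpl39l were among 3 members with no shared window. Those pseudogenes held 4391, 5539 and 5768 expected counts in replicates 1, 2 and 3, or 20.97%, 11.4% and 22.8% of what they and the members held together. The posterior SD of the expected count had a median of 0.532% over members, and was highest for Rpl24 at 4.65%. It does not include the choice of quantifier.

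The other quantifier gave lower values for many members. Against the median of all 14184 genes in each library, 30 of 80 members were lower (37.5%, against 26.4% of all genes) and 3 higher (3.75%, against 28.8%) by limma with Benjamini-Hochberg adjustment. Without that centring 7 were higher (8.75%, against 33% of all genes) and 3 lower (3.75%, against 1.9%). Rps12 had the largest difference, 9.84, 9.56 and 17.2 TPM with the other quantifier against the 23.3, 102 and 30.3 above (-2.13 on the log2 scale, SE 0.44, limma adjusted p = 0.017). Rpl12 followed (-1.61), then Rpl10 (-1.22), with 29.5, 37.1 and 38.8 TPM there, and Rpl9 (-0.89). In Rps12 and Rpl12 replicate 2 no longer stood out. Rpl10 and Rpl9 have the closely similar copies Rpl10-ps3 and Rpl9-ps6, which hold 92.1% and 86.1% of their windows. Shared sequence did not track the difference over all members: Spearman's rho with the percent of windows shared was -0.09 over 76 genes, as a description. Rps27, with 98.6% of its windows shared, differed by -0.09 and did not pass (limma adjusted p = 0.83). Rpl36, Rps7 and Rpl27 were the 3 higher members, by 0.97, 0.91 and 0.73. Without replicate 3 the limma calls of Rps12, Rpl12, Rpl10, Rpl36 and Rps7 were lost (adjusted p = 0.060, 0.074, 0.052, 0.18 and 0.072). By limma 13 members were then lower (16.25%, against 12.2% of all genes) and 1 higher (1.25%, against 17.99%). Without replicate 2, 18 were lower (22.5%, against 15.6% of all genes) and 6 higher (7.5%, against 22.9%). Rpl36 also lost its limma call without replicate 1 (adjusted p = 0.086). With the other quantifier 77 of 80 members still departed above 0 in replicate 2, and Rps12, Rpl12 and Rpl5 did not.

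Of the members 19 overlap a gene on the opposite strand, in 11 cases a protein-coding one of at least 1 TPM, such as Vps52 for Rps18 and Nkiras1 for Rpl15. The strand setting of the counting is not given in the sources used here, so reads of such pairs cannot be told apart.

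Other genes of the translation machinery were set beside the members. Of the ribosomal proteins that the symbol rule misses, Fau, fused to a ubiquitin-like protein, had 22.5, 90.5 and 20.2 TPM. Rack1, a signalling scaffold on the small subunit, had 34.9, 64.7 and 38.5 TPM. The departures of Fau and Rack1 in replicate 2 were 1.93 and 0.48, and both passed the chi-square test. Their protein-coding isoforms departed by 2.39 and 2.01, near the members' median of 2.40.

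All 14 listed translation factors and related genes with terminal pyrimidine mRNAs passed the chi-square test, as did 68.8% of all genes. On TMM-scaled counts all 14 were highest in replicate 2, where 24.3% of all genes passed while highest there. By TPM Pabpc1 was instead highest in replicate 3, with 145, 175 and 198 TPM. The median departure of the 14 genes was 0.85. Eef1a1, the factor that brings aminoacyl-tRNA, had 123, 430 and 130 TPM, and Eif3h, their lowest, 3.71, 10.6 and 3.47 TPM. Over the 12 with both isoform classes the median departure was 1.51 for protein-coding and -0.14 for retained-intron isoforms. The 2 isoform classes thus stood apart in this list too, by less than in the members.

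Genes that build or regulate ribosomes departed less. Of 36 ribosome biogenesis factors 26 passed the chi-square test (72.2%, near the 68.8% of all genes), 19 of them highest in replicate 2 (52.8%, against 24.3% of all genes), with a median departure of 0.29. Sbds, which helps release a factor from the large subunit, had 72.9, 92.3 and 114 TPM, and Bysl 0.320, 0.520 and 0.480 TPM, and neither passed. Of 14 genes of the mTOR branch 11 passed (78.6%), 4 of them highest in replicate 2 (28.6%), with a median departure of 0.13. Larp1, which binds the pyrimidine tract, had 74.9, 88.1 and 101.4 TPM, and Eif4ebp1 0.560, 1.06 and 0.700 TPM. Of 77 tested mitochondrial ribosomal proteins, nuclear genes for the organelle's own ribosome, 46 passed (59.7%), 29 of them highest in replicate 2 (37.7%), with a median departure of 0.35 and a range of means from Mrps16 (0.683 TPM) to Mrpl52 (20.2 TPM).

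The 13 mitochondrially encoded protein genes departed more than the members, by a median of 3.42 (10.7-fold). All 13 passed the chi-square test, as did 68.8% of all genes. Of the 13, 12 were highest in replicate 2 (92.3%, against 24.3% of all genes that passed while highest there). Their highest was mt-Atp8 with 46.4, 1483 and 189 TPM and their lowest mt-Co2 with 31.8 and 15.7 TPM in replicates 1 and 2 and listed at 0 in replicate 3. The summed level of the 10 macrophage markers was also highest in replicate 2, as given above, and RNA input was lowest there. Whether any of these has a part in the members' departure was not tested, and input and replicate cannot be told apart.

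**Figure D5:**
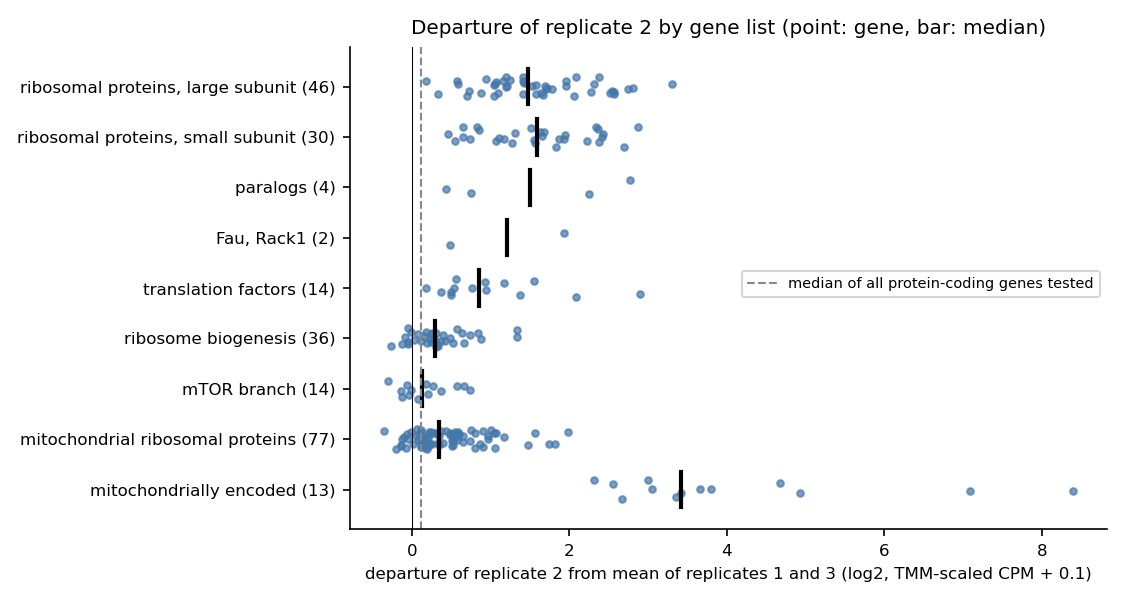
Departure of replicate 2 (log2, TMM-scaled CPM + 0.1) for the measured genes of each list, 1 point per gene, with a bar at the median and a dashed line at the median of all protein-coding genes tested. The medians were 1.48 and 1.59 for large and small subunit genes, 0.85 for translation factors, 0.13 for the mTOR branch and 3.42 for mitochondrially encoded genes.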

How the data were processed

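Chromatin-fraction RNA was sequenced in 3 libraries of lipid A-treated macrophages, taken as 1 group. The authors deposited expected counts and TPM per gene and per transcript in the layout of RSEM, with a posterior SD and an effective length, for mm10 and GENCODE M21, per the file headers and the deposited text note. A second deposited table per library holds estimated counts and TPM per transcript in the layout of kallisto, called the other quantifier. For the aligner, the versions and the strand the entry is "not given in the sources used here". Entries other than annotated genes (0.845%, 0.282% and 0.179% of counts in replicates 1, 2 and 3) were left out.

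Counts were rounded and scaled with edgeR 4.0.16 (TMM) for the chi-square test, and log2(TPM + 0.1) values were tested with limma 3.58.1 in R 4.3.3. Each fit covered all genes past its count minimum (a mean of 10, or 50 for isoform ratios), with Benjamini-Hochberg adjustment at 0.05. The scripts were tested on simulated data. DESeq2 1.42.0 size factors, other pseudocounts, count minimums, the other quantifier and leaving out each library were the alternatives. Precision is limited by the 3 libraries and by 19751051 to 21984526 counts in each.

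The genes and lists were chosen with earlier results of these data known. Genes were named by rule: the 8 highest and 8 lowest levels, all paralogs, the stalk, Rpl5, Rpl11, Rps27a, Rps6, Rps3 and Rpl13a; the 6 largest and 3 smallest departures of replicate 2 and the largest of replicates 1 and 3, at a mean of at least 100 counts; the 6 highest and 4 lowest isoform ratios among those past the threshold with 1 sign in every library; up to 4 quantifier differences each way; the 3 highest and 3 lowest snoRNA hosts; and the ends of each partner list. Other genes were named after their values were seen. Some single genes are not reported here by name. They remain in the counts and medians.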

Additional observations from a re-analysis of the deposited data

How the results depend on the processing

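No paired analysis was possible because all libraries belong to 1 group. Of the summary values under an alternative, 97 were counted as kept. A level was kept if it moved by less than its SD between libraries. A count was kept if within 1.5-fold, and a departure if within 1.5-fold with the same sign. These rules are wide. The median member level counted as kept at 13.1 TPM without replicate 2, against 25.6 TPM with all libraries and an SD of 19.2. The values that were not kept follow. The large minus small subunit difference was 0.041 on counts not divided by length. Leaving out 1 library, the number of members differing between libraries ranged from 41 to 80, and the share of all genes from 47.5% to 54.7%. The isoform ratio count ranged from 3 to 18 for higher members (11.3% to 16.9% of all genes). For lower members it ranged from 5 to 22 (16.7% to 32.4% of all genes). With the other quantifier 17 of 64 were higher (26.6%, against 35.4% of all genes). With a mean of at least 200 counts, where fewer members were tested, 6 of 43 were lower (14.0%, against 33.3% of all genes). The quantifier count without 1 library ranged from 1 to 6 for higher members (17.99% to 24.96% of all genes). It ranged from 13 to 27 for lower members (12.2% to 18.1% of all genes). Without centring 7 members were higher (33% of all genes) and 3 lower (1.9% of all genes). The median departure ranged from -1.34 to 0.31 in replicate 1 and from -1.79 to -0.31 in replicate 3. For protein-coding isoforms it ranged from -1.94 to 0.76 in replicate 1, from 1.94 to 2.79 in replicate 2 (1.71 with the other quantifier) and from -2.79 to -0.76 in replicate 3. For retained-intron isoforms it was 0.0019 with DESeq2 size factors and 0.065 with the other quantifier in replicate 1, -0.0064 with DESeq2 size factors and -0.0047 to 0.11 without 1 library in replicate 2, and -0.13 with the other quantifier in replicate 3. The cause of these changes was not tested. Of the values for single members, 284 kept their call or, for levels, moved by less than their SD. Another 18 lost their call, and 4 levels moved by more than their SD with the other quantifier (Rpl12, Rpl27, Rpl36 and Rps7). The levels of Rps12 (51.9 to 12.2 TPM) and Rpl10 (72.9 to 35.1 TPM) moved by less than their wide SD. Depth limits single values such as Rps27l, with 7, 52 and 5 counts.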
